A study of Homo sapiens with 2 samples.

Results

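The band 9q34 at the end of the long arm of human chromosome 9 held 826 of the 2058 peaks listed on that chromosome for the transcription cofactor LDB1. The members were chosen by position, as every deposited peak on chromosome 9 whose midpoint lay at or above base 127500000 of hg38, and the region was selected on its measured number of peaks. They made up 1.57% of the 52765 peaks on chromosomes 1 to 22 and X, and 53742 peaks were listed in all. The library is labelled as NB4, an established human acute promyelocytic leukaemia line that carries the fusion of PML with the retinoic acid receptor gene RARA. The cells were labelled untreated, and the series was made of 2 CUT&Tag libraries, 1 with an antibody against LDB1 and 1 with IgG, a non-specific antibody for background. CUT&Tag tethers the Tn5 transposase to chromatin through the antibody, so that DNA near the target is cut and tagged for sequencing. Only the LDB1 list was analysed here.

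LDB1 does not bind DNA itself. It joins to itself and to LIM-domain proteins, and in blood cells it is known to bring enhancers and promoters together in a complex with LMO2, TAL1, E proteins and GATA factors, which bind E-boxes and GATA sites. The band carries several genes known in leukaemia and blood formation, among them ABL1, NUP214, SET, NOTCH1, RXRA and GFI1B.

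The list gave positions and widths in bp, but no height, score or summit and no count of reads, and the depth is unknown. With 1 library there was no replicate check and no test, and every comparison below is a description of that library. Intervals are 95% exact Clopper-Pearson intervals and cover counting error only. The file holds no expression or copy-number values, so the label could not be checked against markers, and the number of copies of 9q34 per cell was not measured. A stretch of 9.29 Mb around CDKN2A on the short arm held 0 peaks. Peaks were dense toward the end of ABL1 here. They were also dense up to the end of BCR on chromosome 22, where they dropped from 290.8 to 8.0 per Mb. These places were picked with their densities known, and similar stretches or drops elsewhere are not counted here. Loss around CDKN2A and gain of joined BCR and ABL1 are known of K562, another leukaemia line. Whether either is present in these cells was not tested, and neither was the identity of the cells. Positions are hg38, counted from 1, and genes, starts and promoter sequences are those of RefSeq GRCh38.p14. Its promoter table lists 300 bases per start, 250 before it and 50 after, and covers 189 of the 217 protein-coding genes of the band.

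Promoters are shown for members of the gene lists described below, mostly those under the widest promoter peaks, because they show the DNA at the starts that LDB1 peaks covered. Each is written 5′ to 3′ on the strand of its gene. Capitals mark the GATA core GATAA or an E-box (CAGCTG, or else CAGGTG, or else CAGATG) on either strand, and a sequence without capitals holds neither. EGFL7 encodes a secreted protein of endothelial cells, and its downstream start (chr9:136662666-136662965, plus strand) lay under a peak of 5841 bp.
EGFL7 downstream start: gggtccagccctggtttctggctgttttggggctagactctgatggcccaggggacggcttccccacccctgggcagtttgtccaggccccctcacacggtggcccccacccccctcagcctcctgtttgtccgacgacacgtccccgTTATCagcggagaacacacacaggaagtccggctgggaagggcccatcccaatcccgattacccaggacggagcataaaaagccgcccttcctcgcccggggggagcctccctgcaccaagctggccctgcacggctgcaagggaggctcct
EGFL7 upstream start (chr9:136658606-136658905, plus strand, peak of 372 bp): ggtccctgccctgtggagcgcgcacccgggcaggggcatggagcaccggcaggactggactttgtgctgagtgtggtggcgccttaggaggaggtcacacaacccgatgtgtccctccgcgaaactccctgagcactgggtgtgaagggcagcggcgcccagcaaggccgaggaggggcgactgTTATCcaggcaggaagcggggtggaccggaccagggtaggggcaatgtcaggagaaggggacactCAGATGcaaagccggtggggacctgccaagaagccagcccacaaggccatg
PTGES (chr9:129752993-129753292, minus strand, peak of 1566 bp): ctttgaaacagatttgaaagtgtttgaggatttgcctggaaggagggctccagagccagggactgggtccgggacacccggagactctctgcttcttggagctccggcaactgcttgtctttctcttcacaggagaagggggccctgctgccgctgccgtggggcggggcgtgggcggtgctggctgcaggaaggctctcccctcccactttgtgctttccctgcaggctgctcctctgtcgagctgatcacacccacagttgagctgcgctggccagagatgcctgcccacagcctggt
DPM2 (chr9:127937805-127938104, minus strand, peak of 1360 bp): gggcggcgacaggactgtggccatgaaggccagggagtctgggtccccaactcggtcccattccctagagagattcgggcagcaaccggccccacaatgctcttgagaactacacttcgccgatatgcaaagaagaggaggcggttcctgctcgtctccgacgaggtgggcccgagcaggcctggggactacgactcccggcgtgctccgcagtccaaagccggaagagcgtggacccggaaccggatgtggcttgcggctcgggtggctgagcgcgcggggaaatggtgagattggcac
ABL1 (chr9:130835004-130835303, plus strand, peak of 1292 bp): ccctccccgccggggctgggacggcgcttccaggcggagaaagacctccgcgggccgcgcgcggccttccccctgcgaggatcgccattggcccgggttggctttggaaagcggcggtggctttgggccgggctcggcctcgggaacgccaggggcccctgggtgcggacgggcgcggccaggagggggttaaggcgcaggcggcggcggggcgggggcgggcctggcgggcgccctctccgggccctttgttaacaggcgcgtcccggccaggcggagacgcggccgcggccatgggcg
GTF3C4 (chr9:132669785-132670084, plus strand, peak of 1290 bp): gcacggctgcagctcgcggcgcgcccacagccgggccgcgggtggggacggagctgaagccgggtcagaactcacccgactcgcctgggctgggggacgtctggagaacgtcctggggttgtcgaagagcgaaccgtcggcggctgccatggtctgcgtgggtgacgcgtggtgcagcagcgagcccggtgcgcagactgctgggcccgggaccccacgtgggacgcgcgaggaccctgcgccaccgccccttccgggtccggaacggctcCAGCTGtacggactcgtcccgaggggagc
FUT7 (chr9:137032039-137032338, minus strand, peak of 1120 bp): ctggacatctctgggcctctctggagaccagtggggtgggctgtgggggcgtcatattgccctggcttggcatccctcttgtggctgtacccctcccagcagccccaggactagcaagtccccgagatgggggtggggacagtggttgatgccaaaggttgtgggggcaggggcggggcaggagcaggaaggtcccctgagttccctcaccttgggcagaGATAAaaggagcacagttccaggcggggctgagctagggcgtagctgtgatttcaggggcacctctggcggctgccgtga
Both EGFL7 promoters held a GATA core, which reads as TTATC on the strand printed, the upstream one also held the E-box CAGATG, and the FUT7 promoter held 1 GATA core on its own strand. The GTF3C4 promoter held an E-box, and the PTGES, DPM2 and ABL1 promoters held neither motif. FUT7, a fucosyltransferase gene of leukocytes, was added to the set after its sequence was seen. The upstream EGFL7 start is shown beside the downstream one, although its peak was narrow. PRDM12, with neither motif under a peak of 1171 bp, and a further GTF3C4 start, with the E-box CAGGTG, are not shown. The set therefore does not tell how common the motifs are.

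The band was dense in LDB1 peaks throughout most of its length. It spanned 10.83 Mb and held 76.3 peaks per Mb, beside 9.66 on the rest of chromosome 9 and 17.4 over chromosomes 1 to 22 and X. It took 40.1% of the peaks of chromosome 9 (interval 38.01% to 42.3%) on 7.83% of its length. These values chose the region and support nothing further. The 3 peaks just inside the boundary were 3004, 848 and 664 bp wide and lay 5.78, 8.11 and 36.9 kb from it, and the 3 just outside were 524, 348 and 383 bp wide and lay 2.16, 10.4 and 12.3 kb before it. Gene density was also high, at 20.03 protein-coding genes per Mb beside 6.59 in all, so that the peaks per gene were 3.81 beside 2.64. Other dense chromosome ends held more peaks per gene, with 15.99 in the first 7 Mb of chromosome 7, 8.32 in the last 5 Mb of chromosome 16 and 6.21 in the last 5 Mb of chromosome 17.

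Along the band the peaks were uneven. The 21 full bins of 0.5 Mb held from 3 to 77 peaks with a median of 41, beside a median of 4 over 6048 bins of chromosomes 1 to 22 and X. Of these bins, 10 held at least 45 peaks and together 569 of the 826, a number reached by 3.54% of all bins. The highest were neighbours. The bin with FUBP3, PRDM12, EXOSC2, ABL1, QRFP and FIBCD1 held 77 peaks and the next, with LAMC3, AIF1L, NUP214, FAM78A, PLPP7 and PRRC2B, held 76. A bin with BRD3, WDR5 and RXRA held 58 peaks with 4 genes. The bin with the most genes, 32, held 45 peaks. The rank correlation of peaks with genes across the 21 bins was 0.39 (Spearman), given as a description, since the bins share 1 library and lie side by side.

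**Figure D1:**
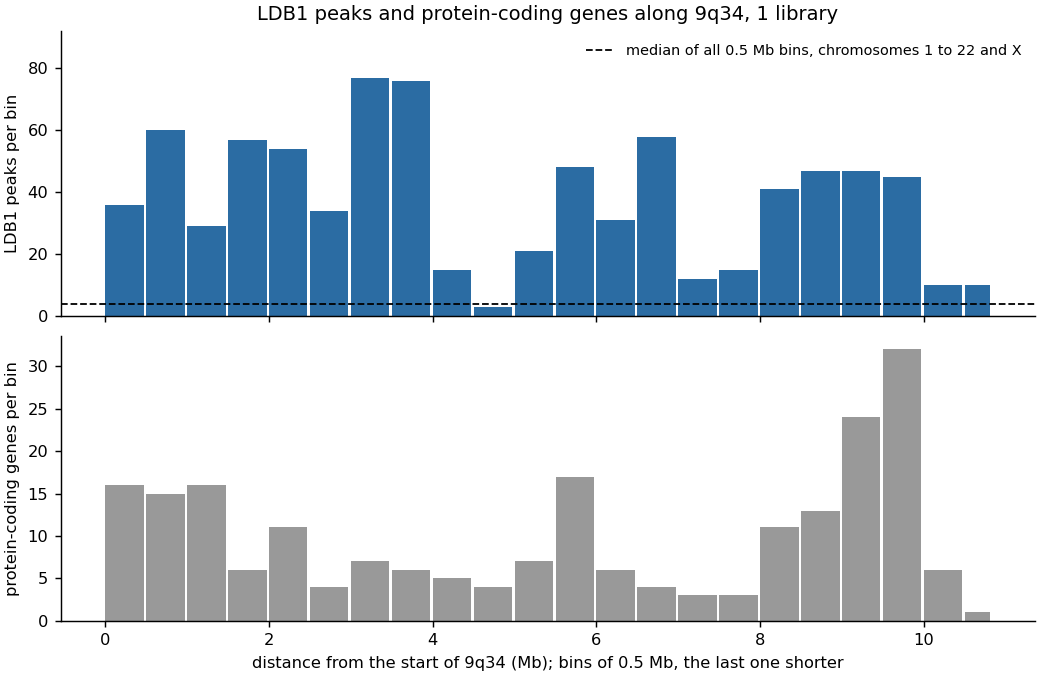
LDB1 peaks (upper panel) and protein-coding genes (lower panel) in bins of 0.5 Mb along 9q34, by distance from its start in Mb; bars are counts in 1 library and the dashed line is the median of all bins of chromosomes 1 to 22 and X, at 4. The neighbouring bins with ABL1 and LAMC3 are the highest at 77 and 76 peaks, while the bin with the most genes, 32, has 45.

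Among the longest stretches without a peak, one of 285.9 kb took in parts of MED27 and NTNG2 and the bases between them, and one of 206.6 kb took in part of RAPGEF1, an exchange factor gene of the CRK pathway that had 6 peaks in its body. Another, of 140.4 kb, held ZMYND19 and ARRDC1 and reached into DPH7 and EHMT1.

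The peaks had much the same median width as all peaks and a longer tail of wide ones, though other dense ends had larger shares of peaks of at least 1 kb. The median width was 562 bp (quartiles 405.2 and 884.8 bp, range 323 to 9181 bp), beside 550 bp over all peaks and 512 bp on the rest of chromosome 9. Peaks of at least 1 kb numbered 157, or 19.01% (interval 16.4% to 21.9%), beside 16.5% of all 52765 peaks and 12.4% of those on the rest of chromosome 9. The excess over all peaks rested on a single run of peaks from ABL1 to AIF1L: without its 94 peaks the share was 16.8%. In the last 5 Mb of the chromosome it was 12.6%. The dense ends of chromosomes 7, 16 and 17 had shares of 37.85%, 27.36% and 20.85%. Peaks of at least 3 kb numbered 15, or 1.82%, beside 0.769% of all peaks and 1 of 1232 on the rest of chromosome 9. In the dense ends of chromosomes 7, 16 and 17 they made up 5.94%, 4.44% and 0.339%. The 15 of the band covered 68.4 kb, or 10.6% of the bases under its peaks, and 12 of them had their midpoint inside a protein-coding gene.

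The widest of all, 9181 bp, lay in RXRA, a nuclear receptor gene whose product pairs with retinoic acid and other receptors (chr9:134333947-134343127, 12.1 kb downstream of the nearest listed start). A peak of 5234 bp followed it in the same gene (chr9:134353689-134358922). The EGFL7 peak of 5841 bp (chr9:136659380-136665220) was the only one of the 15 with its midpoint within 1 kb of a listed start. USP20, a ubiquitin protease gene, held 3 of the 15, of 5494 bp (chr9:129865208-129870701), 5262 bp (chr9:129876967-129882228) and 3194 bp, and the peak of 5262 bp reached past the end of the gene. Peaks of 4855 bp in MIGA2, a gene of mitochondrial fusion, 4743 bp in ABL1 and 4724 bp in FAM78A came next. The ABL1 peak (chr9:130883998-130888740) ran across the last base of the gene. The FIBCD1 peak of 3595 bp, the QRFP peak of 3530 bp, the FAM78A peak and the NIBAN2 peak of 3004 bp also ran across an end of their gene or a neighbour. LAMC3, a laminin chain gene, held a peak of 3239 bp. A peak of 3412 bp lay 13.0 kb before EGFL7 over the listed promoters of the non-coding RNA genes LOC102724193 and LOC105376325, and one of 3078 bp lay 10.7 kb past GFI1B.

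**Figure D2:**
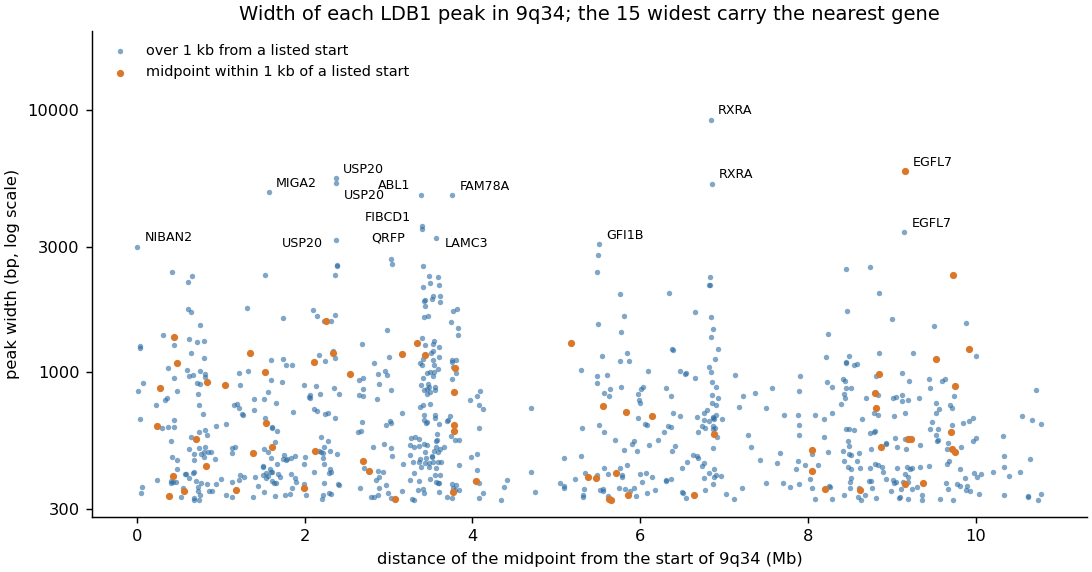
Width of each of the 826 peaks (bp, log scale) against the distance of its midpoint from the start of 9q34 (Mb); orange points have a midpoint within 1 kb of a listed protein-coding start, blue points do not, and the 15 widest carry the gene they lie in or nearest to. Of the labelled peaks only the EGFL7 peak of 5841 bp is orange.

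Much of the signal lay in runs. When peaks with gaps of at most 10 kb were joined, 41 runs of at least 5 peaks held 450 of the 826 peaks (54.5%), beside 36.6% of all peaks and 16.5% on the rest of chromosome 9. The share was higher in the dense ends of chromosomes 7, 16 and 17, at 91.3%, 75.2% and 70.2%. The median gap in 9q34 was 4.32 kb, beside 9.56 kb in all and 1.609, 2.017 and 3.425 kb in those ends. The run from ABL1 through QRFP, FIBCD1 and LAMC3 to AIF1L (chr9:130850794-131124696) held 94 peaks in 273.9 kb, 34 of them at least 1 kb wide, and 36.0% of its bases lay under a peak. Only 7 runs on chromosomes 1 to 22 and X, itself included, had that many peaks. RXRA held the next, with 34 peaks in 117.9 kb and 37.0% of bases covered. Runs of 23 peaks at FAM78A and PLPP7, 20 at UBAC1 and NACC2, and 17 at CIZ1, DNM1 and GOLGA2 completed the 5 largest. A run of 14 peaks from C9orf78 through USP20 to FNBP1 was the most fully covered of those described here, at 46.5% of 62.2 kb.

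Peaks were not spread evenly over ABL1, whose last part lies in the largest run. ABL1 is the tyrosine kinase gene joined to BCR in chronic myeloid leukaemia. The gene had 21 peaks in its body (chr9:130713043-130887675, 174.6 kb). Its start at the far 5′ end is not in the promoter table, and the listed start lies 122.2 kb into the gene. Before the listed start there were 10 peaks of 324 to 565 bp, which covered 4.55 kb. From that start to the end of the gene there were 11, of 355 to 4743 bp, which covered 11.02 kb. The listed promoter itself lay under the peak of 1292 bp. FIBCD1, which encodes a membrane receptor for acetylated sugars, had 20 peaks in 38.3 kb of gene, 10 of them at least 1 kb wide. LAMC3 had 30 in 85.3 kb and AIF1L, an actin-binding protein gene, 10 in 26.6 kb. Per 100 kb of gene this came to 52.3 peaks for FIBCD1, 37.6 for AIF1L, 35.2 for LAMC3 and 12.03 for ABL1. No listed promoter was given for LAMC3 or AIF1L.

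RXRA (chr9:134326455-134440585) had 30 peaks in its body, 10 of them at least 1 kb wide, and peaks covered 39.3 kb of its 114.1 kb. The first began 1.37 kb after the listed start. The peaks of 2142, 2308, 9181 and 1628 bp followed each other from there to 18.75 kb with gaps of less than 1.2 kb. Neither of its 2 listed promoters lay under a peak, although a peak of 1045 bp ended less than 1 kb before the first, and the midpoint of one of 577 bp lay 0.946 kb before the other. The distal part of the gene held only scattered peaks, the last of them 1220 bp wide and 105.1 kb from the start.

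USP20 had a peak of 1179 bp over its start, shared with C9orf78, which is read from the other strand. From 20 to 56 kb downstream 10 peaks with a median width of 2441 bp covered 25.3 kb, and this stretch ran over the end of USP20 and into FNBP1, a membrane-curvature gene that is a known fusion partner of KMT2A. EGFL7 (chr9:136658856-136672678) had only 2 peaks in its body, and the one of 5841 bp ran from 0.524 to 6.36 kb after the upstream start. GFI1B (chr9:132945531-132993434) encodes a transcriptional repressor that acts in erythroid and megakaryocytic development. The gene had no peak at its first listed start or in its first 33 kb. Its other listed start lies at 33.16 kb, and a peak of 392 bp began 53 bp after it, just past the listed promoter, with its midpoint 0.248 kb downstream. The 5 peaks in the gene lay from 33.2 to 44.4 kb, the widest 2410 bp, and 4 more followed past its end (47.9 kb), of 2797, 1526, 3078 and 627 bp. TSC1, the tumour suppressor gene just upstream on the opposite strand, had none.

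**Figure D3:**
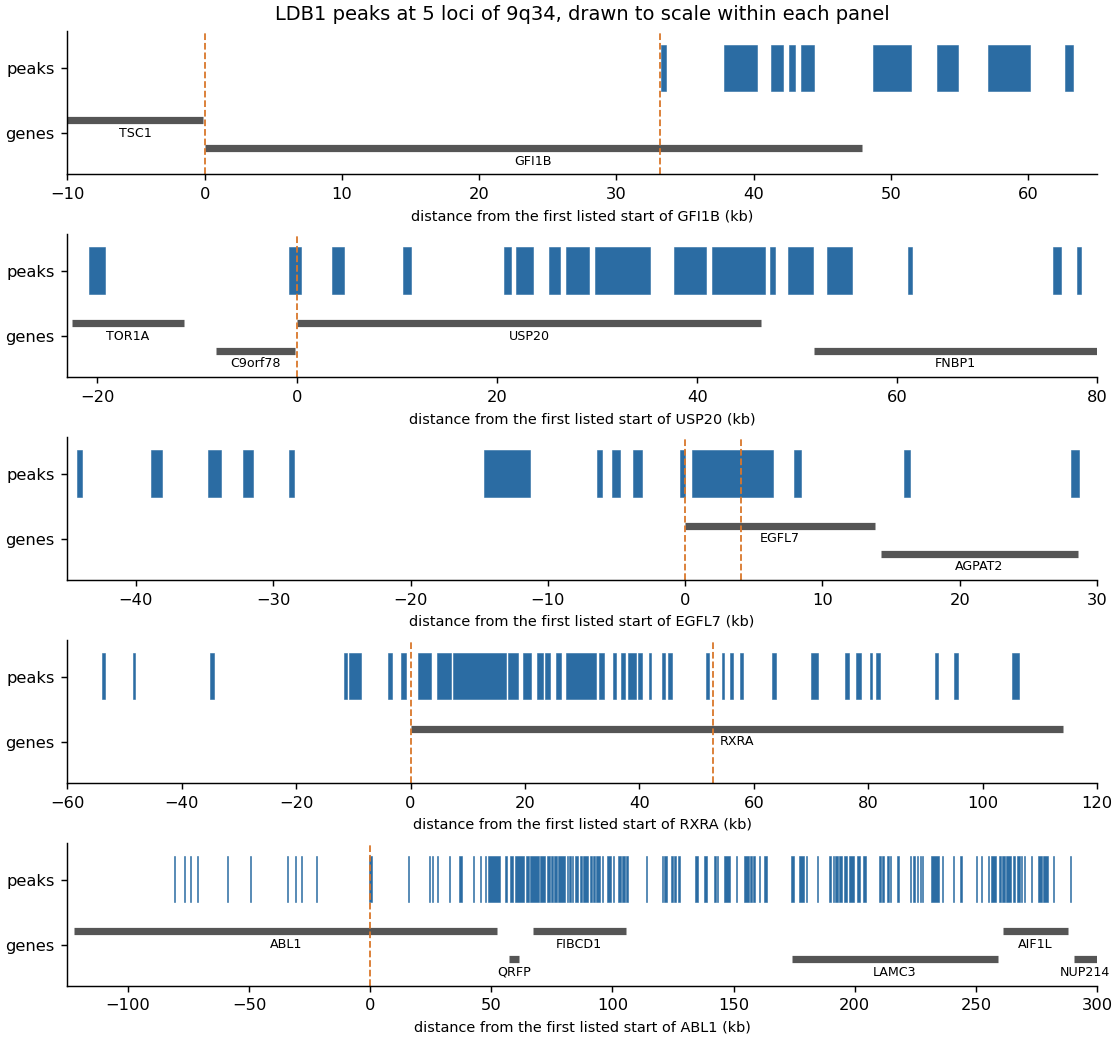
LDB1 peaks (blue blocks) and protein-coding genes (grey bars) at 5 loci, drawn to scale by distance in kb from the first listed start of the named gene (dashed lines mark each of its listed starts). The GFI1B peaks lie from 33.2 kb on, at and after its other listed start at 33.16 kb, the USP20 peaks are widest toward the end of the gene, the 9181 bp RXRA peak lies in the first 20 kb of the gene, and the ABL1 peaks thicken toward the end of the gene and into FIBCD1.

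Of the 217 protein-coding genes, 195 had a peak in the body or within 10 kb, or 89.9% (interval 85.05% to 93.5%), beside 70.4% of 19974 genes and 62.6% on the rest of chromosome 9. The median was 3 peaks per gene beside 1. There were 20 genes with at least 10 peaks, 29 with 1 and 22 with none. By peaks in the body alone, LAMC3 and RXRA led with 30 each. Then came ABL1 with 21, FIBCD1 with 20, and VAV2, an exchange factor gene, with 16. DNM1 (dynamin) and HMCN2 had 14 each, and AIF1L, USP20 and EXD3 had 10 each. Longer genes held more peaks (Spearman rho 0.61 over the 217 genes, as a description), and VAV2 came to only 6.94 per 100 kb and HMCN2 to 8.32. Among the longest genes with no peak within 10 kb were TSC1 (54.03 kb), TRAF2, an adaptor of tumour necrosis factor receptors (44.6 kb), and TTF1, a gene of RNA polymerase I termination (31.3 kb).

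Genes were then grouped by 8 lists of 95 genes in all, of which 94 were matched, and each count below stands against the 195 of 217 of the band. Among 17 leukaemia genes and blood regulators 15 had a peak within 10 kb, or 88.2% beside 89.9% in the band. TSC1 and TRAF2 had none. The median was 7 peaks per gene beside 3 in the band. Of this list only CDK9 (4.76 kb) and SET (12.97 kb) were shorter than the median gene of the band, at 13.66 kb. Longer genes held more peaks, and the medians of this and the later lists were not adjusted for gene length. RXRA had 33, ABL1 24 and VAV2 18. NOTCH1, the receptor gene mutated in T-cell leukaemia, had 9 (widest 1594 bp). NUP214, a nuclear pore gene, had 9 (widest 1550 bp), but only 4 of these lay in its body, the widest of them 657 bp. SET, which encodes a histone chaperone and phosphatase inhibitor, had 2 (widest 756 bp). GFI1B and FNBP1 had 8 each. RAPGEF1, SPTAN1 and RALGDS had 7 each, PKN3 had 6, SH2D3C 4, and CDK9, the elongation kinase gene, and FUBP3 had 1 each. The promoters of 6 of the 17 lay under a peak, those of SH2D3C, SPTAN1, FNBP1, FUBP3 (17 of its 300 bases), ABL1 and RALGDS. Here and below a promoter counts as covered when a peak overlaps at least 1 of its 300 bases. By that count 46 of the 189 genes of the band with a listed promoter had one covered (24.3%), beside 28.0% of 15812 such genes in all. These shares are the background for the covered promoters named in each list.

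Of 12 innate immune and granule genes 9 had a peak, with a median of 2.5, and FCN1, CLIC3 and TRAF2 had none. LCN2, which encodes the iron-scavenging lipocalin of neutrophil granules, had 4, at 5.43 and 3.45 kb before its start (1182 and 562 bp) and from 0.59 and 2.96 kb after it (1688 and 2315 bp). The LCN2 start itself lay between them and was not covered. PTGES, the prostaglandin E synthase gene, had 6 (widest 1567 bp) and FUT7 had 5 (widest 1120 bp), and these were the genes of the list with a covered promoter. SLC2A6 had 4, C8G and ENTPD2 3 each, CARD9, an adaptor gene of fungal recognition, 2, and FCN2 and PTGDS 1 each. In the lipocalin family, whose members carry small hydrophobic molecules, 11 of 13 had a peak with a median of 2, and PAEP and LCN9 had none. The OBP2A and OBP2B promoters were both overlapped, by peaks of 418 and 413 bp, that of OBP2A in only 13 bases. These genes are near-identical copies, and reads could have been placed at either.

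All 8 genes listed as endothelial and matrix genes had a peak, with a median of 5. LAMC3 had 36 and EGFL7 had 7, and the other 6 had 3 to 6. ADAMTS13, the protease of von Willebrand factor, had 6, and ADAMTSL2 and COL5A1 had 5 each. CERCAM, NTNG2 and ENG, the endoglin gene, had 3 each. NTNG2, although on this list, is a netrin gene known mainly from neurons. Of 14 neuronal and developmental genes 13 had a peak, with a median of 3.5. DNM1 had 16, KCNT1, a potassium channel gene, had 11, and the homeobox gene PRRX2 had 10. NCS1 had 8, GRIN1, a glutamate receptor gene, 6, CACNA1B 5, PRDM12 4 and LHX3 1. The promoters of NCS1, PRDM12 and DBH lay under peaks.

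All 18 metabolic enzyme genes that were matched had a peak, with a median of 3.5, and CRAT, the carnitine acetyltransferase gene, had the most at 10. ASS1 of the urea cycle and SLC25A25, a mitochondrial carrier gene, had 8 each, and DPM2 and CEL, a lipase gene, had 7 each. The DPM2, CEL and AGPAT2 promoters were covered. Of 14 transcription and chromatin genes 12 had a peak, with a median of 4.5, and those without included EXOSC2. Beside RXRA these were led by NACC2 with 11, then CIZ1 and GTF3C5, a subunit gene of RNA polymerase III factor TFIIIC, with 9 each. EHMT1, a histone H3 methyltransferase gene, had 5, BRD3, a bromodomain gene, 4 and MED27 2. The 6 genes of the surfeit cluster, a tight group of housekeeping genes, all had a peak, with a median of 3, from the few peaks they share. SURF6 and MED22 had 5 each, RPL7A and SURF4 3 each, and SURF1 and SURF2 2 each.

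**Figure D4:**
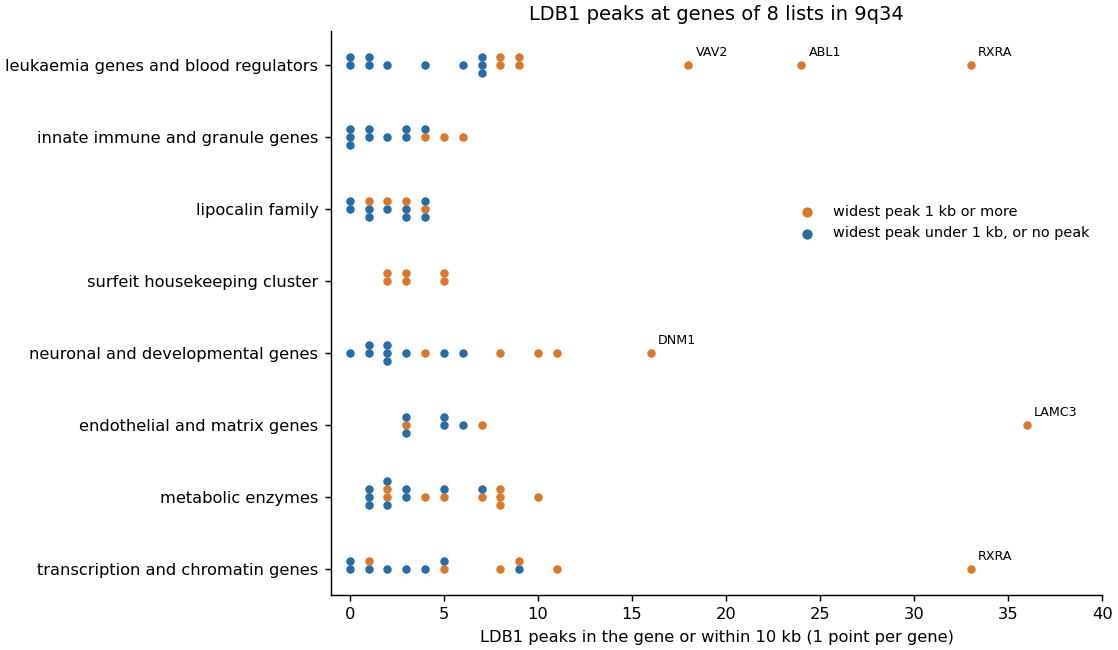
Number of LDB1 peaks in each gene or within 10 kb, with 1 point per gene, for 8 gene lists; orange points are genes whose widest such peak is at least 1 kb and blue points are the others. Most genes lie below 10, with RXRA at 33, ABL1 at 24, VAV2 at 18, LAMC3 at 36 and DNM1 at 16 standing apart; RXRA is on both the blood and the transcription list.

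Few of the peaks lay at gene starts. Of the midpoints, 67 of 826 (8.11%, interval 6.34% to 10.2%) lay within 1 kb of a listed protein-coding start, beside 11.7% of 49986 peaks on chromosomes with listed starts and 15.1% on the rest of chromosome 9. The other dense ends were lower again, at 4.20% on chromosome 7, 2.77% on chromosome 16 and 3.39% on chromosome 17. Since genes are dense in the band, 4.09% of its bases lay that near to a start, beside 1.26% in all. The number of peaks per Mb of such bases was nearly the same in all 3 sets, with 151.3 in 9q34, 161.3 on the rest of chromosome 9 and 160.5 in all. More than 1 kb from every listed start it was 73.1 per Mb in 9q34, beside 8.28 on the rest of chromosome 9 and 15.5 in all. The higher density of the band lay in bases away from starts. In the first 7 Mb of chromosome 7 both were higher than in these 3 sets, at 409.0 and 176.1. They were 140.2 and 107.5 in the last 5 Mb of chromosome 16, and 129.2 and 117.6 in that of chromosome 17. A high density away from starts was thus shared with these dense ends.

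Density in the band was also above that of all chromosomes with listed starts in other parts of genes. Inside protein-coding genes 9q34 had 80.8 peaks per Mb beside 24.9 in all, and within 1 kb of the last base of a gene 110.3 beside 53.6. Of the 826 peaks, 557 (67.4%) had their midpoint inside a gene, beside 59.8% of the 49986 peaks on chromosomes with listed starts. Genes filled 63.6% of the band, beside 41.7% of those chromosomes. Around starts the share of peaks from the start to 0.5 kb downstream was 3.03%, beside 5.64%, and from 0.5 kb upstream to the start it was 2.18%, beside 3.29%. From 2 to 5 kb downstream it was 6.42%, beside 3.70%, and from 5 to 10 kb 9.20%, beside 5.63%. Upstream it was likewise higher beyond 0.5 kb and out to 50 kb. It was 1.70% beside 0.912% from 1 to 0.5 kb and 3.75% beside 2.48% from 5 to 2 kb. From 50 to 20 kb it was 13.6% beside 8.72%. More than 50 kb from a start, on either side, it was lower, at 19.01% beside 35.02%. These shares were not adjusted for the spacing of starts, which differs with gene density. The median distance to a start was 17.9 kb, beside 26.5 kb. When the 826 peaks were ranked by width and cut into 5 equal classes, the share near starts was 9.04%, 5.45%, 9.09%, 7.27% and 9.70% from the narrowest class to the widest, with no steady order. Among all peaks of the same 5 ranges of width it was 8.001%, 8.73%, 11.5%, 14.1% and 17.2%, higher in each wider class.

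**Figure D5:**
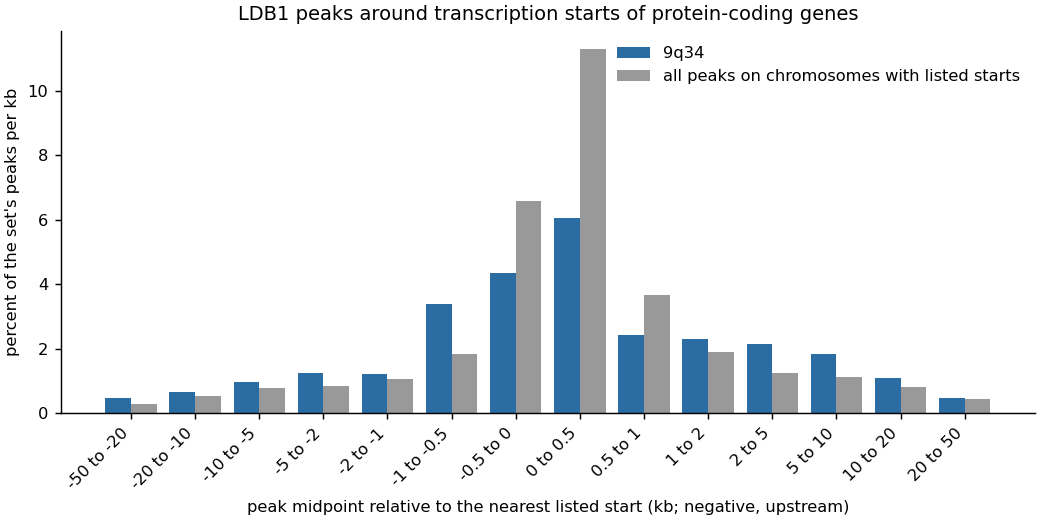
Percent of peaks per kb by position of the midpoint relative to the nearest listed protein-coding start (kb, negative values upstream), for 9q34 (blue) and all peaks on chromosomes with listed starts (grey). The 9q34 bars are lower from 0.5 kb upstream to 1 kb downstream and higher in every class from there to 50 kb on both sides. Peaks more than 50 kb from a start, 19.01% in 9q34 and 35.02% of all, are not drawn.

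Of 272 listed protein-coding promoters in the band, 53 lay under a peak, or 19.5% (interval 14.9% to 24.7%), beside 24.3% of 22132. These were promoters of 46 genes, and 43 peaks overlapped them. A peak took in all 300 bases of 29 of the 53, and fewer than 50 bases of 4. Opposed pairs of genes shared 7 of those peaks: KYAT1 with LRRC8A, C9orf78 with USP20, DDX31 with GTF3C4, AK8 with SPACA9, CEL with LOC124902325, NDOR1 with TMEM203 and EXD3 with NOXA1. After EGFL7 the widest promoter peaks were at ST6GALNAC4, a sialyltransferase gene (2408 bp), and SLC34A3, a phosphate transporter gene (2342 bp).

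The covered promoters were searched for 8 motifs on both strands. The GATA core GATAA stood in 8 of 53 (15.1%, interval 6.75% to 27.6%), beside 7.80% of the 218 distinct promoters of the band without a peak, 12.8% of all 5347 covered promoters and 18.6% of all 22012. The intervals of the first pair overlapped. The E-box CAGCTG was in 16.98%, 16.1%, 19.5% and 18.02% of the same 4 sets, and the E-box CAGGTG in 26.4%, 26.1% and 22.01% of the first 3. The E-box CAGATG was in 9.43%, 10.6%, 9.80% and 12.2%. The RUNX core TGTGGT was in 9.43% of covered promoters of the band, beside 11.3% of all, and the PU.1 core GAGGAA in 20.8% beside 28.0%. The GC box GGGCGG was in 71.7% of them and in 69.7% of those of the band without a peak, beside 56.3% of all. Median GC content was 67.0% and 68.8% in the band with and without a peak, and 67.3% among all covered promoters. The composite of CTG and GATAA with 8 or 9 bases between, the form known for TAL1 with GATA1, was in 0 of 53, which allows a share of up to 6.72% by the exact interval, and in 1.01% of all promoters. Motifs may overlap, and a match describes letters only. Some listed promoters also overlap, and a site they share, such as the GATA core of EXD3 and NOXA1, counts for each. The intervals treat such promoters as separate. The peaks away from starts were not searched, since no genome sequence was used.

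Non-coding RNA genes of the band were covered as follows. Of 107 listed long non-coding RNA promoters, 20 lay under a peak (18.7%, interval 11.8% to 27.4%), beside 13.1% of 12829, the widest peak being that of EGFL7, which also covers LNCEGFL7OS on the other strand. Of 27 microRNA hairpins, 6 were overlapped by a peak (22.2%, interval 8.62% to 42.3%), beside 9.82% of 1558. MIR6855 lay in the USP20 peak of 5494 bp. MIR199B lay under a peak of 323 bp in DNM1, and MIR219A2 and MIR219B lay on opposite strands under a single peak of 350 bp. MIR4672 and MIR6877 lay under peaks of 616 and 742 bp. MIR126, the endothelial and blood stem cell microRNA in an intron of EGFL7, was not overlapped, its nearest peak lying 3.28 kb away. Mature sequences of 4 of these are given from RefSeq, 5′ to 3′ with the seed (bases 2 to 8) in capitals, and no 2 share a seed.
hsa-miR-6855-5p (chr9:129869610-129869634, plus strand): uUGGGGUUuggggugcagacauugc
hsa-miR-199b-3p (chr9:128244745-128244766, minus strand): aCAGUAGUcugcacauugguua
hsa-miR-219a-5p (chr9:128392676-128392696, minus strand): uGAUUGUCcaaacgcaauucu
hsa-miR-126-3p (chr9:136670653-136670674, plus strand): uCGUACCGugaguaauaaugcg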

How the data were processed

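CUT&Tag of untreated NB4 cells was done once with an LDB1 antibody and once with IgG, and only the LDB1 peak list was used. The submitters' processing notes name hg38, Bowtie2 2.4.1 and MACS2 2.0.10. The sources used here do not give the thresholds, the treatment of duplicates, excluded regions or the use of IgG as a control. Per the file headers, the authors deposited the chromosome, start, end and length of each peak, in bp, with no other measured unit. A deeper library gives more and wider peaks, and the depth is unknown.

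Peaks were joined to the RefSeq GRCh38.p14 gene and promoter tables in Python 3.11.15 (pandas 2.3.3, scipy 1.17.1). A peak was near a gene when it overlapped the body or the 10 kb to either side, and at a start when its midpoint lay within 1 kb. The RefSeq promoters used here include none on chromosome 8, so starts and promoters are compared over the other 22 chromosomes. The counting steps were tested on simulated data. Named genes are the members of the 8 lists, those at the 15 widest peaks, the 10 with most peaks in the body, those of the 5 largest runs, and those of the 5 longest stretches, and the 5 longest genes, without a peak. Some genes and stretches that meet this rule are not reported here. Other genes named were chosen after their values were seen. The region, lists and rules were chosen with earlier results of these data known. Alternatives to each threshold were computed.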

Additional observations from a re-analysis of the deposited data

How the results depend on the processing

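No paired analysis was possible because there was 1 library per antibody. The density ratio of 9q34 to chromosomes 1 to 22 and X was 4.38. It was 5.30 with the widest 25% of peaks, 3.82 in the last 5 Mb, 3.98 without the ABL1 to AIF1L run and 1.44 per protein-coding gene. The share of peaks of at least 1 kb moved from 19.01% to 12.6% in the last 5 Mb and to 22.6% with gaps of at most 500 bp joined. The share at starts moved from 8.11% to 5.21% within 500 bp (all peaks 8.93%), 13.3% within 2500 bp (15.8%), 11.1% with starts of all biotypes (14.2%) and 12.2% with either end of the gene. Genes with a peak moved from 89.9% to 70.5% in the body alone (all genes 57.6%), 99.5% within 50 kb (86.1%), 57.1% with the widest 25% of peaks (35.3%) and 72.8% when the wider 50% were kept (52.8%). With the widest 50% the runs went from 41 to 21 and the covered promoters from 19.5% to 13.6%. The other alternatives for these 6 results moved them by less than their intervals or, for runs, by less than 1.5 times. Counts for the 94 list genes depended on the flank: 42 stayed within 1.5 times in the body alone and 14 within 50 kb. The settings without the run and with either gene end were chosen after seeing the data. Depth, peak height and the IgG background limit every count here, since none could be used to grade a peak.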

Other observations

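The density of LDB1 peaks changed over short distances at the largest run of 9q34 and at BCR on chromosome 22, both places chosen after their values were seen. The 250 kb before the ABL1 to AIF1L run held 15 peaks, the run itself 94 (343.2 per Mb), the 250 kb after it 32 (128.0 per Mb) and the next 250 kb 13 (52.0 per Mb). On chromosome 22 the 250 kb before BCR held 52 peaks (208.0 per Mb), BCR itself 40 (290.8 per Mb) and the 250 kb after it 2 (8.0 per Mb). On the short arm of chromosome 9 a stretch of 9.29 Mb that holds CDKN2A had 0 peaks. Copy number was not measured, and its part in these values was not tested. Similar stretches and drops elsewhere are not counted here. Peak positions alone cannot tell whether the cells are the labelled NB4 or another line. The identity of the cells was not tested.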
